A study of Mus musculus with 4 samples.

Results

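The clustered histone genes are the mouse genes that encode the histones made when DNA is replicated, and they lie in 4 genomic clusters whose numbers form part of their names. They were taken here as every row of the 4 deposited tables whose gene symbol begins with Hist1h, Hist2h, Hist3h or Hist4h, which gave 68 of 24421 genes. By symbol, 6 of the 68 belong to the linker histone H1, 18 to H2A, 19 to H2B, 12 to H3 and 13 to H4. Among them, Hist2h3c2 (H3) and Hist3h2bb-ps (H2B) were annotated as pseudogenes. The Hist1 cluster holds 54 of them, the Hist2 cluster 10, the Hist3 cluster 3 and the Hist4 locus 1.

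RNA was sequenced from 2 Usp25+/+ mice (animals 139 and 140) and 2 Usp25-/- mice (animals 826 and 850), and the comparison between these genotypes is the one the design implies. Usp25 encodes a deubiquitinase, an enzyme that removes ubiquitin from proteins, and the sources used here do not say which portion of the gene the knockout mice lack. All 4 were C57BL/6 mice of 8 weeks, labelled female, and both genotypes had received 2.5% dextran sulfate sodium (DSS), an agent that injures the colon lining, in their drinking water over 5 days, with 2 days on untreated water after it. The labels give colon as the tissue and poly(A) RNA as the molecule, and no group without DSS was analysed here. The values are taken as FPKM, which is sequenced fragments divided by transcript length and by the fragments mapped in the library, and each genotype had 2 animals throughout.

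Copies of H2A, H2B, H3 and H4 form the core of a nucleosome, and H1 binds the DNA where it enters and leaves that core. The clustered genes supply these proteins during S phase, and most lack introns. Their mRNAs typically end just after a conserved stem-loop instead of in a poly(A) tail, so oligo(dT) selection recovers them poorly, while some of the genes can also be read through to a downstream poly(A) signal and give polyadenylated mRNA.

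The libraries went against 2 of their labels. Of 9 colon epithelial markers found, the median was between 0 and 0.161 FPKM in every library and the sum was 12.2 and 13.1 FPKM in Usp25+/+ and 125 and 36.8 FPKM in Usp25-/-. Cdx1 and Aqp8 were listed at 0 in all 4, while 8 lung epithelial markers summed to between 2249 and 5251 FPKM. The Y-linked gene Ddx3y stood at 12.7 to 30.3 FPKM and Xist at 0 to 0.110 FPKM. Usp25 itself was 38.5 and 16.6 FPKM in the Usp25+/+ libraries and 2.65 and 1.71 FPKM in the Usp25-/- libraries (log2 difference -3.07, SE 0.47, limma adjusted p = 0.960 after Benjamini-Hochberg correction), and the genotypes did not overlap. The Usp25+/+ library 139 stood apart: its 12 neutrophil markers summed to 48275 FPKM against 872, 2290 and 1399 FPKM in libraries 140, 826 and 850, and it had 20556 genes above 0 against 15603 to 17242. In bulk tissue, fewer cells of a type and less RNA per cell cannot be told apart.

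The stem-loop that ends these mRNAs was searched for in mouse build mm9. It was sought as a 16-base hairpin within 200 bases after the annotated stop codon furthest downstream in each gene. It was found in 60 of the 66 members with a coding model, beginning 22 to 59 bases after the stop, and 62 of the 68 members were annotated with 1 exon. The commonest form, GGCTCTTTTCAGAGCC, was present in 36 members and in no H4 gene. The form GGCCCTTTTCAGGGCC was present in 8 members, all of them H4 genes. The windows below show the hairpin in capitals with 5 bases on each side, 5′ to 3′ on the strand of the gene, for the members that the results turn on.
Hist1h1c: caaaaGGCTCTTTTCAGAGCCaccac
Hist1h1a: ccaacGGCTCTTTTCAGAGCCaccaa
Hist1h2bc: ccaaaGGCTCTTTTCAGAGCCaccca
Hist2h2aa1: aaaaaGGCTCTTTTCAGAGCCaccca
Hist2h2aa2: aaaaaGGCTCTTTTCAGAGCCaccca
Hist1h3h: tcaaaGGCTCTTTTCAGAGCCaccca
Hist1h4d: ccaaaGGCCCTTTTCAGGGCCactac
Hist1h4i: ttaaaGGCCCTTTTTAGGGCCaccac
The windows lie just downstream of the coding sequence, at chr13:23831376-23831401 (plus strand) for Hist1h1c, chr13:23856256-23856281 (plus) for Hist1h1a and chr13:23776511-23776536 (plus) for Hist1h2bc. Those of the gene pair Hist2h2aa1 and Hist2h2aa2 lie at chr3:96049950-96049975 (plus) and chr3:96043702-96043727 (minus) and have the same letters. The others lie at chr13:21809959-21809984 (plus) for Hist1h3h, chr13:23673814-23673839 (plus) for Hist1h4d and chr13:22132830-22132855 (minus) for Hist1h4i. No hairpin was found for Hist1h2an, Hist1h2bp, Hist1h2bq, Hist1h2br, Hist2h2bb or Hist2h2be. Hist1h2bp, Hist1h2bq, Hist1h2br and Hist2h2bb were annotated with 2 or 3 exons. A hairpin near a more upstream stop of these genes would have been missed. Hist2h3c2 and Hist3h2bb-ps were annotated as pseudogenes with no coding model.

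Levels differed widely between members, and most of the highest belonged to genes annotated beyond the hairpin. The gene annotation ran more than 50 bases past the hairpin for 23 members, whose mean levels over the 4 libraries had a median of 5.12 FPKM (0.200 to 130). For the 37 members annotated to end within 50 bases of it or before, the median was 2.76 FPKM (0 to 15.6). A mean above 10 FPKM was reached by 7 of the 23 and by 1 of the 37, Hist1h2ap. A poly(A) signal, AATAAA or ATTAAA, stood in the last 50 bases of the annotation for 12 of the 23 and 1 of the 37. Among the 7, Hist1h2bc, Hist1h1c, Hist1h2be and Hist3h2a had this signal, and Hist1h2bg, Hist2h2aa1 and Hist2h2aa2 did not. Hist2h2aa1 and Hist2h2aa2 end 68 bases past the hairpin and share reads, as described below. Hist1h2bc, which codes for H2B, had the highest mean (130 FPKM). Its annotated end lay 7826 genomic bases past the hairpin, a distance that includes an intron, since its 2-exon model has 736 bases. Whether the spliced model keeps the hairpin was not tested. Hist1h2ac, an H2A gene annotated 2010 bases past the hairpin, had a mean of 0.425 FPKM. Members nearest the 50-base limit were Hist1h3g at 47 bases and Hist1h3b at 51 bases, and the limit was chosen after the values were seen.

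**Figure D1:**
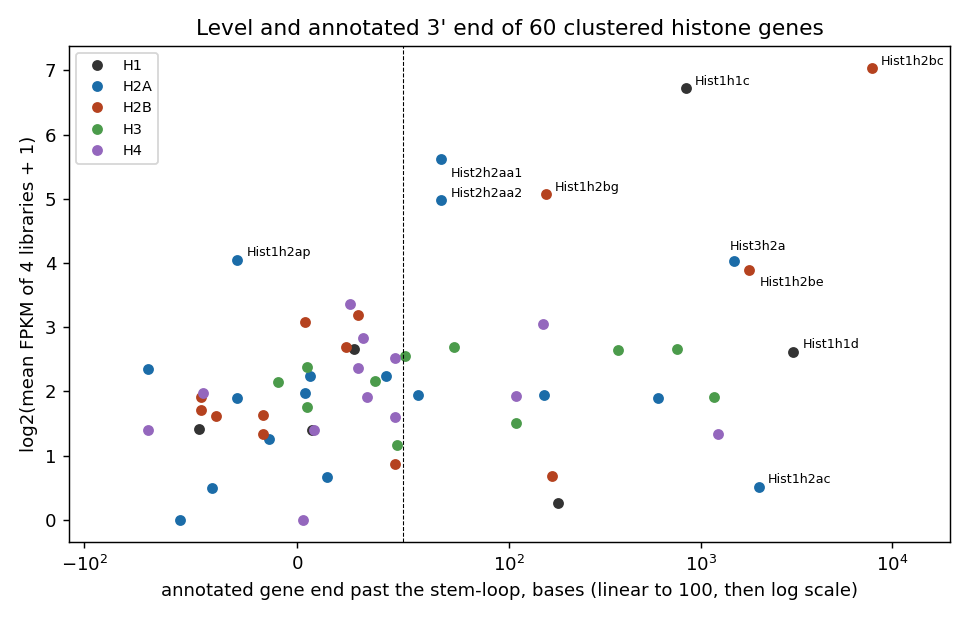
Mean level over the 4 libraries, as log2(FPKM + 1), of the 60 members with a hairpin, against the number of bases by which the annotated gene end lies past it (axis linear to 100 bases, then logarithmic), with 1 point per gene coloured by class and a dashed line at 50 bases. Of the 8 members with a mean above 10 FPKM, 7 lie to the right of the line, and Hist1h2ap is the exception. Distances are genomic and include introns, as for Hist1h2bc, whose 2-exon model has 736 bases.

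Most members were low. The median of the 68 means was 2.81 FPKM, 8 members had a mean above 10 FPKM, 49 lay between 1 and 10 FPKM, and the remaining 11 were below 1 FPKM and were not tested. Hist1h2aa and Hist1h4m were listed at 0 in all 4 libraries. The 5 highest members, Hist1h2bc, Hist1h1c, Hist2h2aa1, Hist1h2bg and Hist2h2aa2, held 70.2% of the summed histone FPKM in library 139, 60.7% in 140, 59.9% in 826 and 54.0% in 850. The sum over all 68 was 469 and 699 FPKM in Usp25+/+ and 527 and 577 FPKM in Usp25-/-, so that the Usp25-/- libraries lay between the Usp25+/+ ones.

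**Figure D2:**
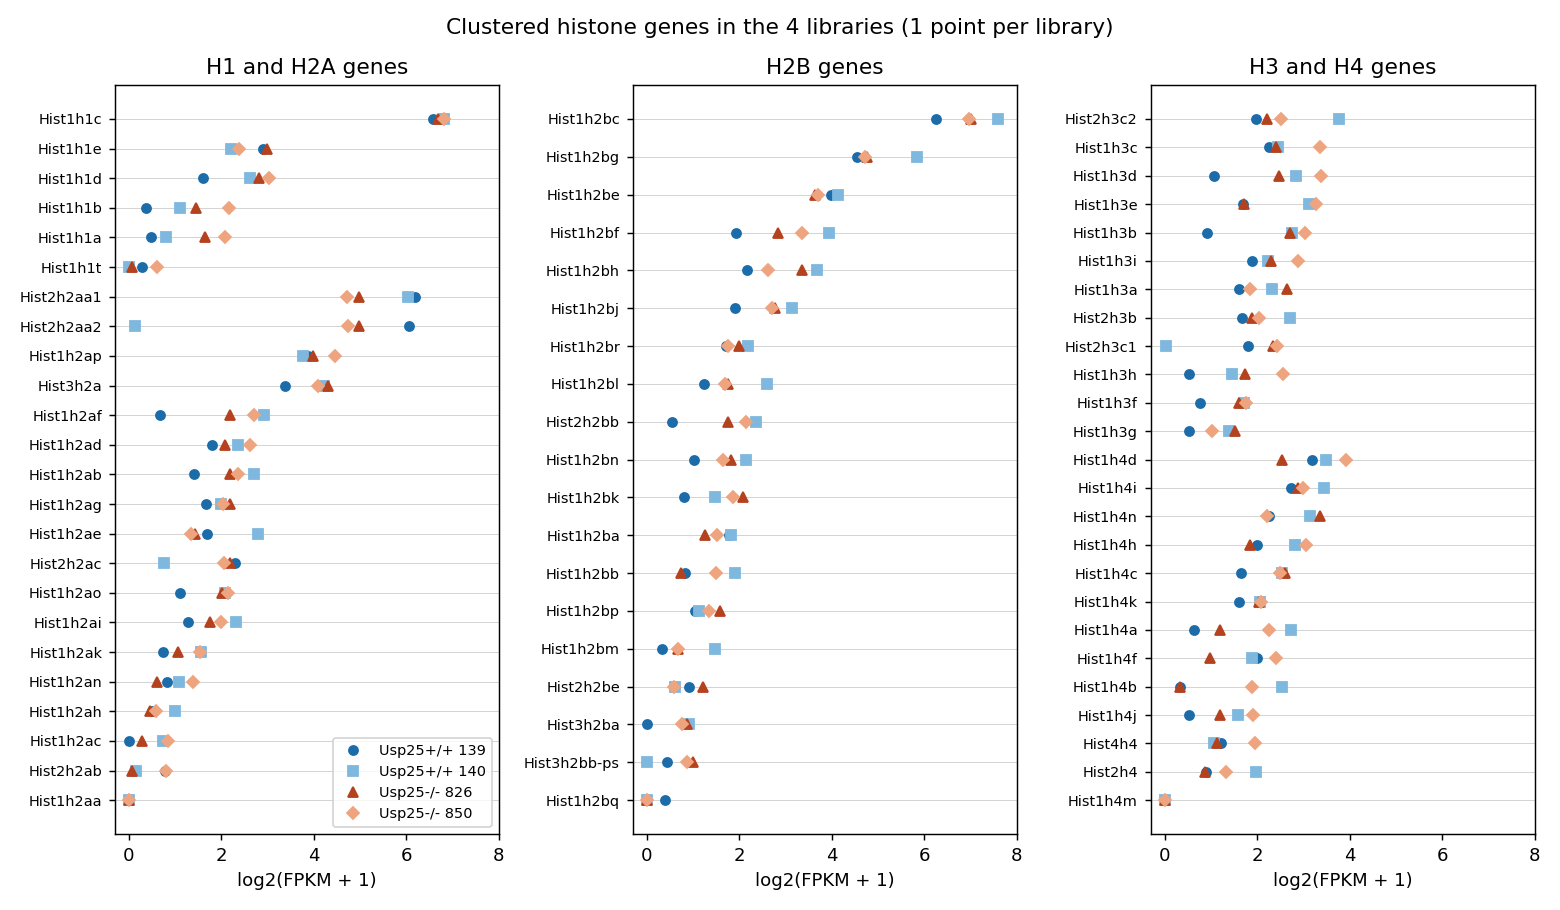
Level of each clustered histone gene in each of the 4 libraries, as log2(FPKM + 1), arranged by histone class. Hist1h2bc and Hist1h1c are among the highest in every library, and library 139 is the lowest of the 4 for 42 of the 68 members.

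The low place of library 139 returned in many members, while the highest library varied. Library 139 was the lowest of the 4 in 42 of 68 members, library 140 in 8, library 826 in 11 and library 850 in 4. Among the 57 tested members 139 was the lowest in 39 (68.4%), and over all 12011 genes tested it was the lowest in 39.2%. Libraries 140 and 850 were the highest in 26 and 25 members. Among the 57 tested members they were the highest in 23 and 22, and over all genes tested in 27.2% and 17.5%.

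The genotype comparison called none of the clustered histone genes. At an adjusted p of at most 0.05 limma, with Benjamini-Hochberg correction over 12011 genes, called 0 of 57 members and 0 genes in all, a background of 0%. The difference was fitted on log2(FPKM + 1), which understates the change of low genes, and every difference below is Usp25-/- minus Usp25+/+ on that scale. At an unadjusted p under 0.05, 375 of all genes and 2 members stood out, 1 in each direction, Hist1h1a and Hist2h2aa1. The share of all genes at that level was 2.11% for higher and 1.01% for lower values in Usp25-/-. The smallest adjusted p of a member was 0.960, and with 2 against 2 libraries an exact permutation test of 1 gene cannot give a two-sided p below 0.333.

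By direction, 42 of the 57 tested members had a higher fitted level in Usp25-/- and 15 a lower one, with a median log2 difference of 0.21. Over all tested genes 53.5% were higher and the median was 0.03. The libraries of the genotypes did not overlap for 10 members with higher values in Usp25-/- (17.5% of 57) and for 4 with lower values (7.02%), against backgrounds of 19.0% and 14.7% of all genes tested, so neither share exceeded its background. The direction rested on library 139: without it 18 of the same 57 members were higher, 39 were lower and the median was -0.20. Without library 140, 48 of 56 were higher and the median was 0.59, and without library 826 it was 0.40. The sign of 39 of the 57 differences changed when 1 library or another was left out.

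**Figure D3:**
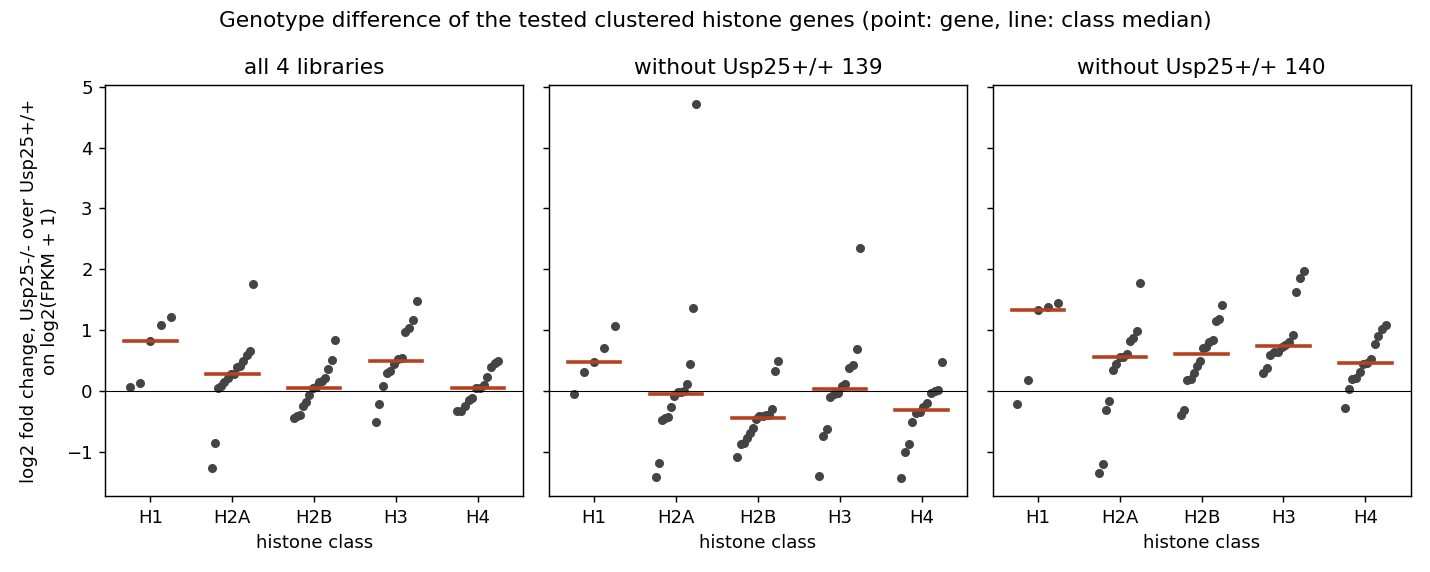
Log2 differences (Usp25-/- minus Usp25+/+, on log2(FPKM + 1)) of the tested members by histone class, with 1 point per gene and the class median as a bar, for all 4 libraries and with a Usp25+/+ library left out. The median over the members moves from 0.21 with all libraries to -0.20 without library 139 and 0.59 without library 140.

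Linker histones had the highest class median among the genes tested, but it rested on low genes. All 5 tested H1 genes had a higher fitted level in Usp25-/-, with a median of 0.82, which was 0.47 without library 139 and 1.33 without library 140, each with 4 of 5 higher. With a mean of at least 5 FPKM the H1 median was 0.12 over 3 genes, below the 0.40 of H2A and the 0.31 of H3, and with no filter it was 0.51 beside 0.49 for H3. Hist1h1a, a replication-dependent linker histone gene, was 0.399 and 0.749 FPKM in Usp25+/+ and 2.13 and 3.26 FPKM in Usp25-/-. Both Usp25-/- libraries lay above both Usp25+/+ libraries (log2 difference 1.22, SE 0.37, limma adjusted p = 0.960). Without each library in turn the Hist1h1a difference was between 1.00 and 1.45, and none of its 100-base windows was shared with another member.

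Hist1h1b and Hist1h1d, of the same kind, were also ordered by genotype. Hist1h1b was 0.287 and 1.14 FPKM in Usp25+/+ and 1.72 and 3.51 FPKM in Usp25-/- (log2 difference 1.08, SE 0.46). Hist1h1d was 2.03 and 5.17 FPKM against 6.08 and 7.19 FPKM (0.82, SE 0.42). In both the genotypes did not overlap and library 139 was the lowest, and neither passed limma's test even before adjustment. Without library 139 the difference was 0.71 for Hist1h1b and 0.30 for Hist1h1d, and without library 850 that of Hist1h1b was 0.71. The other H1 genes did not separate. Hist1h1c, the most abundant linker histone here, was 93.6 and 111 FPKM in Usp25+/+ and 102 and 111 FPKM in Usp25-/- (log2 difference 0.06, SE 0.31, 95% interval -0.72 to 0.84). Hist1h1e was 6.48 and 3.65 FPKM against 6.98 and 4.18 FPKM (0.12, SE 0.39). Hist1h1t, the testis linker histone, was at most 0.522 FPKM and was not tested. Thus 3 of the 5 tested H1 genes, all low, were higher in both Usp25-/- libraries, where 19.0% of all genes tested were, while Hist1h1c, which made up most of the class, overlapped between genotypes.

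**Figure D4:**
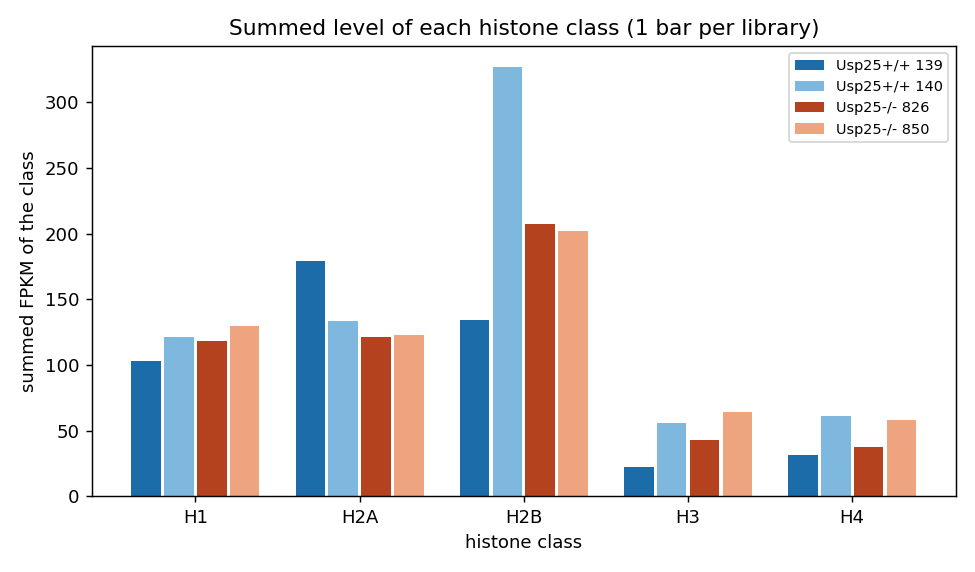
Summed FPKM of each histone class in each library, with 1 bar per library and no error bar, since each bar is a single library. The H2B sum runs from 134 FPKM in library 139 to 327 FPKM in library 140, with both Usp25-/- libraries (207 and 202 FPKM) between them.

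Among the H2A genes the highest was the Hist2h2aa pair. Hist2h2aa1 was 72.3 and 65.0 FPKM in Usp25+/+ and 30.5 and 25.4 FPKM in Usp25-/-. The genotypes did not overlap and the difference, -1.27 (SE 0.29), belonged to the member that ranked first in limma's test (adjusted p = 0.960). It stayed between -1.40 and -1.14 without each library in turn. Its copy Hist2h2aa2 was 65.4 and 0.0947 FPKM in Usp25+/+ and 30.4 and 25.7 FPKM in Usp25-/-, so that only library 140 was near 0 and the difference was 1.76 with an SE of 1.86.

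Hist2h2aa1 and Hist2h2aa2 have identical coding sequences, and 100% of the 100-base windows of each model occur in the other, so reads of that length cannot be assigned to either. Each of the genes is a 578-base single exon, on opposite strands at chr3:96049461-96050038 and chr3:96043639-96044216 (mm9). Summed, the pair was 138 and 65.1 FPKM in Usp25+/+ and 60.8 and 51.2 FPKM in Usp25-/-. The sum was lower in both Usp25-/- libraries, but library 140 lay close to them, and the log2 difference was -0.75 (SE 0.45, limma adjusted p = 0.960). The unadjusted p, under 0.05 for Hist2h2aa1 alone, was above 0.05 for the sum, an alternative chosen after seeing the data.

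Over the class, 12 of the 14 tested H2A genes had a higher fitted level in Usp25-/- and the class median was 0.27, which was -0.05 without library 139, 0.55 without 140, 0.41 without 826 and 0.16 without 850. Hist1h2ap was 13.7 and 12.7 FPKM in Usp25+/+ and 14.8 and 21.1 FPKM in Usp25-/- (0.40, SE 0.31), a difference of 0.16 without library 850 and 0.64 without library 826. Its coding sequence equals that of Hist1h2ao, and the sum of both was 14.9 and 15.9 against 17.9 and 24.5 FPKM (0.42, SE 0.30). In the pair, too, both Usp25-/- libraries were the higher ones, by less than the fitted error allows to call. Hist1h2ae went the other way, with 2.24 and 5.95 FPKM against 1.68 and 1.53 FPKM (-0.87, SE 0.45), and the difference was -1.42 without library 139 and -0.32 without library 140. Hist3h2a, from the small Hist3 cluster, was 9.33 and 17.6 FPKM against 18.7 and 16.1 FPKM (0.40, SE 0.38), with library 139 alone below the rest. Hist2h2ac was 3.91 and 0.692 FPKM against 3.55 and 3.17 FPKM, with library 140 the low one.

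H2B genes followed library 140. It was the highest library for 14 of the 19 H2B genes and 12 of the 14 tested, beside 27.2% of all genes tested. The H2B sum was 134 and 327 FPKM in Usp25+/+ and 207 and 202 FPKM in Usp25-/-. Hist1h2bc was 75.8 and 192 FPKM in Usp25+/+ and 127 and 124 FPKM in Usp25-/- (log2 difference 0.05, SE 0.51). Both Usp25-/- values fell between the Usp25+/+ ones, and the difference was -0.61 without library 139 and 0.72 without library 140. Hist1h2bg showed the same order, with 22.3 and 56.2 FPKM against 26.3 and 25.3 FPKM (-0.45, SE 0.49).

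The class median of the 14 tested H2B genes was 0.05, with 8 higher and 6 lower, which became -0.44 without library 139 and 0.60 without library 140. Hist1h2be, whose model shared 5.71% of its windows with other members, was 14.9 and 16.7 FPKM in Usp25+/+ and 11.5 and 12.1 FPKM in Usp25-/- (-0.39, SE 0.27). Hist1h2ba, the testis H2B gene, which shared 27.6% of its windows, was 2.45 and 2.52 FPKM against 1.40 and 1.87 FPKM (-0.41, SE 0.32). Hist1h2bk was 0.743 and 1.80 FPKM against 3.24 and 2.65 FPKM (0.83, SE 0.38), a difference of 0.49 without library 139. These 3 did not overlap between genotypes, Hist1h2be and Hist1h2ba lower and Hist1h2bk higher in Usp25-/-. Hist1h2bp, at 1.08 and 1.20 FPKM against 1.99 and 1.53 FPKM, was also higher without overlap. In all, 2 higher and 2 lower of the 14 tested did not overlap, beside 19.0% and 14.7% of all genes tested. Hist2h2bb was 0.462 and 4.16 FPKM against 2.39 and 3.45 FPKM, which overlap.

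H3 genes were lowest in library 139 for 11 of 12 and highest in library 850 for 8 of 12. Over all genes tested these shares were 39.2% and 17.5%. Their sum was 22.0 and 55.7 FPKM in Usp25+/+ and 42.7 and 64.2 FPKM in Usp25-/-, which overlap. The median log2 difference was 0.49 with 10 of 12 higher, but 0.03 with 6 of 12 higher without library 139, 0.73 without 140 and 0.85 without 826. Hist1h3h was 0.441 and 1.75 FPKM in Usp25+/+ and 2.34 and 4.94 FPKM in Usp25-/- (1.16, SE 0.50, limma adjusted p = 0.960), with no overlap. The Hist1h3h difference was 0.70 without library 139 and 0.75 without library 850. Hist1h3b was 0.880 and 5.79 FPKM against 5.58 and 7.17 FPKM (1.04, SE 0.65), and library 139 alone was low; without it the difference was 0.11, and without library 140 it was 1.96. Hist1h3c, among the highest H3 genes, was 3.75 and 4.49 FPKM against 4.30 and 9.25 FPKM (0.53, SE 0.41), and library 850 alone was high, with a difference of 0.05 without it and 1.00 without library 826.

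The Hist2h3 genes repeated the split seen in the Hist2h2aa pair. Hist2h3c1 was 2.50 and 0.0277 FPKM in Usp25+/+ and 4.11 and 4.42 FPKM in Usp25-/- (1.47, SE 0.63). Hist2h3c2 was 2.95 and 12.6 FPKM against 3.63 and 4.70 FPKM (-0.51, SE 0.62). Hist2h3b was 2.20 and 5.54 FPKM against 2.72 and 3.15 FPKM (-0.22, SE 0.43). The Hist2h3c1 difference was 2.36 without library 139 and 0.59 without library 140. Hist2h3c1 was thus near 0 only in library 140, the library in which Hist2h3c2 and Hist2h3b were highest. Hist2h3c1 shared 36.1% of its windows with other members, Hist2h3c2 62.2% and Hist2h3b 77.1%, and the annotated span of Hist2h3c1 (chr3:96049477-96052431, mm9) overlaps Hist2h2aa1. Summed, the Hist2h3 genes were 7.65 and 18.2 FPKM in Usp25+/+ and 10.5 and 12.3 FPKM in Usp25-/-, a log2 difference of -0.06 with both Usp25-/- libraries between the Usp25+/+ ones.

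**Figure D5:**
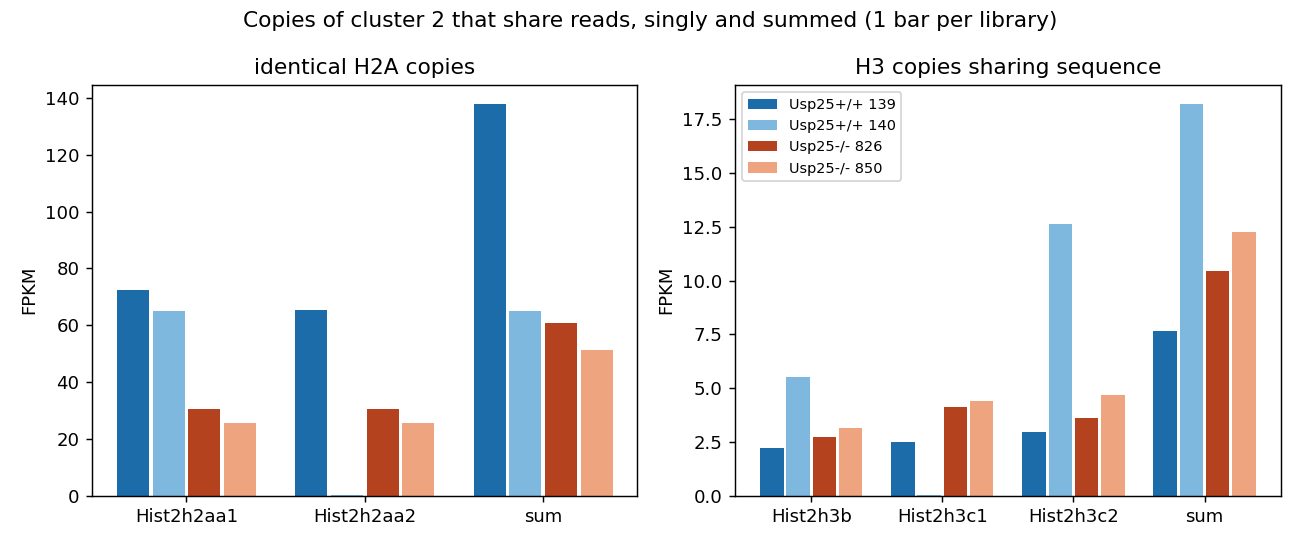
FPKM in each library of the identical Hist2h2aa pair and of the Hist2h3 genes, which share part of their sequence, singly and summed. Hist2h2aa2 (0.0947 FPKM) and Hist2h3c1 (0.0277 FPKM) are near 0 in library 140 only, while the sum of the Hist2h2aa pair is 65.1 FPKM there.

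H4 genes showed no direction that held. The H4 sum was 31.2 and 61.3 FPKM in Usp25+/+ and 37.2 and 57.8 FPKM in Usp25-/-, so that each genotype had 1 low and 1 high library. Of 12 tested H4 genes 7 were higher and 5 lower, with a median of 0.05, which was -0.31 without library 139, 0.45 without 140, 0.46 without 826 and -0.34 without 850. Hist1h4d, the highest H4 gene, was 8.11 and 10.3 FPKM against 4.77 and 14.1 FPKM (-0.12, SE 0.51). Hist1h4i was 5.68 and 9.93 FPKM against 6.41 and 6.97 FPKM (-0.15, SE 0.35). Hist2h4 was 0.858 and 2.92 FPKM against 0.844 and 1.50 FPKM (-0.33, SE 0.49), and Hist4h4 was 1.35 and 1.09 FPKM against 1.20 and 2.88 FPKM (0.40, SE 0.41). None of the 12 separated the genotypes. The median share of 100-base windows that an H4 gene had in common with another member was 33.4% (0% for Hist1h4d, Hist2h4 and Hist4h4, and 88.1% for Hist1h4m), against 55.2% for H2A, 38.3% for H2B, 36.6% for H3 and 0.779% for H1.

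The promoters also differed by class. RefSeq promoter windows (GRCm38.p6), 250 bases before to 50 after the start, were matched for 61 of the 68 members and compared with 32851 windows of all genes, on both strands. No entry was matched for Hist1h2ap, Hist1h2bc, Hist1h3a, Hist1h3f, Hist2h2be, Hist2h4 and Hist3h2bb-ps. The CCAAT box (CCAAT) stood in every H1, H2A, H2B and H3 window matched but in 3 of 12 H4 windows, and in 37.4% of all windows. The TATA box (TATAAA) stood in 57.4% of the members and 13.6% of all windows. The octamer (ATTTGCAT) stood in 7 of 17 H2A and 6 of 16 H2B windows, in 0 of the H1, H3 and H4 windows, and in 1.74% of all. Windows of divergent H2A and H2B partners overlapped by 220 to 279 bases where both were matched. A site there could be counted in both classes, so their counts for each motif are not independent. The motif AAACACA, known from H1 promoters, stood in 5 of 6 H1 windows and 7.18% of all. The E2F-type motif TTTGGCGC stood in 0 of 61 windows and 0.514% of all. The 250 bases before the start are shown for an abundant H1 gene and for an H2A and an H2B gene of divergent pairs, with matches to these motifs in capitals (on either strand), 5′ to 3′ on the strand of the gene.
Hist1h1c: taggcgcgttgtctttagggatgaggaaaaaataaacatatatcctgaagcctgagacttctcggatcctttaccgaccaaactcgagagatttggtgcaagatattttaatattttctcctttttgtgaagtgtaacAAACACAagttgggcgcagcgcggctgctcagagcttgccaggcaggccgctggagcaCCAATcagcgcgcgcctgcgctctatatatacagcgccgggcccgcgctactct
Hist1h2ac: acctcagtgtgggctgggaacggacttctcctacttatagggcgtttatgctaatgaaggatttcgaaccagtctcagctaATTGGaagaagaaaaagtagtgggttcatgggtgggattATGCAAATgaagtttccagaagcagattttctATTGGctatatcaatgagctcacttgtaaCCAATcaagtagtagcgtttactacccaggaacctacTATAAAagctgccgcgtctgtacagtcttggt
Hist1h2bg: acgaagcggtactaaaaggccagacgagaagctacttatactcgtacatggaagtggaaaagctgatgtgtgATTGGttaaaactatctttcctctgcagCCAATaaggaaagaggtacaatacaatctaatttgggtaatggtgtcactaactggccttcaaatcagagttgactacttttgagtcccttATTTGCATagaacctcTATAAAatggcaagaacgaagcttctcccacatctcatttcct
These stretches lie at chr13:23738557-23738806 (plus strand) for Hist1h1c, chr13:23683960-23684209 (minus) for Hist1h2ac and chr13:23571150-23571399 (plus) for Hist1h2bg, in GRCm38.p6. The Hist1h2bg stretch holds CCAAT boxes on both strands, an octamer and a TATA box, and the Hist1h1c stretch holds AAACACA and a CCAAT box.

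H2A and H2B genes are often transcribed away from each other out of a shared upstream stretch. There were 13 such divergent pairs among the members, each of 1 H2A and 1 H2B gene, with starts 168 to 306 bases apart in mm9, and the partners could differ greatly in level. The H2B gene had the higher mean in 9 of 13. Of these, Hist1h2bl and Hist1h2ai were nearly level (2.78 and 2.70 FPKM), and Hist1h2aa, the partner of Hist1h2ba, was at 0. Among the exceptions, the pair of Hist1h2ap and Hist1h2br and that of Hist1h2ao and Hist1h2bq have the same coding sequences. Reads cannot all be assigned between those pairs. Hist1h2ac and Hist1h2bc, with starts 251 bases apart, had means of 0.425 and 130 FPKM. Hist1h2ae and Hist1h2bg, 176 bases apart, had means of 2.85 and 32.5 FPKM. In the Hist3 cluster the order was the opposite, with 0.543 FPKM for the H2B pseudogene Hist3h2bb-ps and 15.4 FPKM for Hist3h2a.

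Of the replication-independent histone genes, most of which give polyadenylated mRNAs, none was called either, and their levels ran from H1foo, listed at 0 in all libraries, to the H3.3 genes. Of 14 listed, 10 were tested, 7 had a higher and 3 a lower fitted level in Usp25-/-, and the median was 0.29, or -0.07 without library 139 and 0.52 without library 140. H3f3b, a gene for the variant H3.3, was 779 and 387 FPKM in Usp25+/+ and 354 and 309 FPKM in Usp25-/-. H3f3a, the other H3.3 gene, was 564 and 480 FPKM against 412 and 367 FPKM. Both were lower in each Usp25-/- library, with log2 differences of -0.73 (SE 0.46) and -0.42 (SE 0.35). H2afj, an H2A variant gene, was 26.9 and 59.3 FPKM against 88.8 and 56.7 FPKM (0.81, SE 0.49), which overlap. Cenpa, the centromeric H3, was 7.07 and 10.4 FPKM against 17.2 and 13.0 FPKM (0.73, SE 0.33), higher in both Usp25-/- libraries.

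None of the factors that make, process or carry histones was called. Of 18 listed genes for histone gene transcription, mRNA 3′ end formation and decay, 16 were tested, 5 had a higher and 11 a lower fitted level in Usp25-/-, and the median was -0.08, or 0.05 without library 139 and -0.20 without library 140. Slbp, which binds the stem-loop, was 28.4 and 16.2 FPKM against 25.6 and 21.4 FPKM (0.12, SE 0.37). Casp8ap2, a histone locus body component, was 3.83 and 1.41 FPKM against 1.16 and 1.41 FPKM (-0.58, SE 0.44). Lsm10, a subunit of the U7 particle that guides the cleavage, was 24.7 and 37.6 FPKM against 21.4 and 21.7 FPKM (-0.48, SE 0.33). Slbp overlapped between genotypes, and Lsm10 and, by a narrow margin, Casp8ap2 were lower in both Usp25-/- libraries. Of 17 histone chaperones and importers tested, 13 were higher and 4 lower, with a median of 0.19, or 0.11 without library 850. Rbbp7, a histone-binding protein, was 36.7 and 29.8 FPKM against 64.6 and 47.1 FPKM (0.72, SE 0.32), and Asf1a, an H3-H4 chaperone, was 3.08 and 2.62 FPKM against 5.07 and 4.85 FPKM (0.63, SE 0.28). Neither overlapped between genotypes.

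S phase genes, which are transcribed at about the time the clustered histones are, also had mostly higher fitted levels in Usp25-/-. Of 27 listed, 25 were tested and 0 were called, 24 were higher and 1 lower, the median was 0.33, and the genotypes did not overlap for 12 with higher and 1 with lower values in Usp25-/-, against 19.0% and 14.7% of all genes tested. Library 139 was the lowest in 19 of the 25, and the median was 0.18 without it and 0.54 without library 140. The 6 gastric surface epithelial markers also moved with genotype, summing to 128 and 159 FPKM in Usp25+/+ and 2733 and 1048 FPKM in Usp25-/-, and their part in these values and in those of the H1 genes was not tested. Mcm6, a subunit of the replicative helicase, was 7.83 and 11.1 FPKM in Usp25+/+ and 17.0 and 20.5 FPKM in Usp25-/- (0.93, SE 0.31, limma adjusted p = 0.960). Rrm2, a ribonucleotide reductase subunit, was 6.88 and 4.89 FPKM against 10.7 and 10.6 FPKM (0.78, SE 0.29, limma adjusted p = 0.960). Of 15 tested genes of G2 and M phase 14 were higher and 1 lower, with a median of 0.34, or 0.14 without library 850. Ube2c, a mitotic ubiquitin-conjugating enzyme, was 5.02 and 7.65 FPKM against 17.6 and 9.59 FPKM (0.96, SE 0.40), and Birc5, or survivin, was 7.72 and 10.9 FPKM against 13.3 and 18.7 FPKM (0.72, SE 0.33). The exception was Mki67, with 11.2 and 3.57 FPKM against 4.50 and 4.89 FPKM (-0.39, SE 0.52), named after its values were seen.

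The summed level of other RNAs known to lack a poly(A) tail was ordered across libraries as the summed clustered histones were, and Rmrp and Rpph1 made up nearly all of it. Of 14 listed, 8 were found, and they summed to 698 and 2415 FPKM in Usp25+/+ and 988 and 2184 FPKM in Usp25-/-. As for the summed histones, library 139 was the lowest, 826 next, then 850, and 140 the highest. Among the histone class sums only that of H4 kept this order, and that of H2A was highest in library 139 (179 FPKM). The 5 highest members held 54.0% to 70.2% of the histone sum. Rmrp, the RNA of the mitochondrial RNA processing ribonuclease, was 50.7 and 1078 FPKM against 256 and 639 FPKM. Rpph1, the RNA of ribonuclease P, was 642 and 1334 FPKM against 722 and 1531 FPKM. In both, each genotype had 1 low and 1 high library. The other RNAs did not all keep the order of the sum: Rnu11 was 0.759 and 0 FPKM against 2.68 and 2.47 FPKM, and Rnu12 was 3.56 and 0.131 FPKM against 3.40 and 1.44 FPKM, with library 140 the lowest in both. Of the 5 tested, 5 were higher in Usp25-/- with a median of 0.78 (1.41 without library 826) and 0 called, and 2 of them, Rnu11 and Scarna2, were under an unadjusted limma p of 0.05 (adjusted p = 0.960). Olfactory receptor genes, mostly silent outside the nose, ran the other way: 839 of 1125 were above 0 in library 139, 516 in 826, 195 in 850 and 123 in 140, summing to 309, 183, 59.1 and 24.4 FPKM. The part of these differences between libraries, and of the neutrophil markers in library 139, in the histone values was not tested.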

How the data were processed

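Poly(A) RNA was captured with oligo(dT) and sequenced as paired reads with a non-directional kit, per the labels' protocols, which leaves no strand to separate a gene from an overlapping or antisense one. The tools cutadapt, TopHat2 2.1.1 and Cufflinks, and the build mm9, are listed without order or role per the submitters' processing notes. For annotation and scaling, the sources used here give nothing. The deposited values were taken as FPKM because Cufflinks is named; no header states the unit. Depth is unknown, so no counting interval is given, and a value of 0 is only listed at 0. Library totals were 526652 to 565645.

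Testing took the 12011 of 24421 genes whose mean reached 1 FPKM and was done with limma 3.58.1 (R 4.3.3) on log2(FPKM + 1), lmFit and eBayes with trend, two-sided, Benjamini-Hochberg at 0.05, after the code was tested on simulated data. Animal numbers differ between genotypes, so nothing was paired. The labels give separate animals. Named members were the 2 highest of each class, the 6 largest differences in each direction and all tested H1 genes. Tested members of clusters 2, 3 and 4, and the 2 largest differences of each other list, were also named. Hist1h2ap, Hist1h2bk, Hist1h2bp, Slbp, H3f3a, H3f3b, Rmrp, Rpph1 and Rnu12 were added after their values were seen. Members and lists were chosen with earlier results of these data known; the summing of identical copies, the 50-base limit and the search for divergent pairs (starts within 500 bases) were added after seeing the data. Hairpins, coordinates and 100-base windows came from the mm9 genome with GENCODE vM1 (68 of 68 symbols matched), and promoters from RefSeq by symbol or synonym.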

Additional observations from a re-analysis of the deposited data

How the results depend on the processing

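limma called 0 members and 0 genes under each of 13 alternatives: pseudocounts of 0.1 and 5, no filter, a mean of at least 5 FPKM, 3 other scalings, no trend, identical copies summed, and each library left out. With all libraries kept, no named member changed sign where it was fitted (25, but 13 with a mean of at least 5 FPKM and 23 with copies summed, where Hist2h2aa2, 1.76 alone, is replaced by a pair value of -0.75). With a mean of at least 5 FPKM, 20 members were tested and 2 higher and 2 lower ones did not overlap (10.0% each, against 19.8% and 15.1% of all genes). Leaving out each library in turn (a lone library is assumed to vary like the others) put the median log2 difference, over the members tested each time, between -0.23 and 0.59, the members without overlap between 14 and 41 higher and 5 and 25 lower; a single library overlaps less often by construction. Without 139 these were 24.1% higher and 43.1% lower, against 35.8% and 37.0% of all genes, and without 140 they were 73.2% and 10.7%, against 45.6% and 35.3%. Without 826 they were 43.9% and 8.77%, against 30.1% and 22.7%, and without 850 28.6% and 17.9%, against 31.7% and 29.1%. The sign changed for Hist1h1c (-0.060 to 0.18), Hist1h1e (-0.22 to 0.47), Hist1h2bc (-0.61 to 0.72), Hist1h2bg (-1.10 to 0.20), Hist1h4d (-0.81 to 0.58), Hist1h4i (-0.51 to 0.20), Hist2h2aa2 (-1.20 to 4.73), Hist2h2ac (-0.17 to 1.37), Hist2h2bb (-0.41 to 1.41), Hist2h3b (-0.74 to 0.30), Hist2h3c2 (-1.41 to 0.38), Hist2h4 (-0.87 to 0.21), Hist3h2a (-0.020 to 0.83) and Hist4h4 (-0.011 to 0.81). The cause was not tested. Scaling moved the median of all genes by less than 0.1. Summing genes of identical protein sequence was not run, since no protein sequences were used here. No paired analysis was possible because the genotypes share no animal number.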

Other observations

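The members known from testis stood beside germ cell markers that were near 0. Hist1h2aa was listed at 0 in all libraries, Hist1h1t was 0.222, 0, 0.0565 and 0.522 FPKM in libraries 139, 140, 826 and 850, and the 7 germ cell markers summed to 1.14, 0.173, 0.612 and 0 FPKM, with the protamine genes Prm1 and Prm2 listed at 0 in all 4. Hist1h2ba, the testis H2B gene, was nonetheless between 1.40 and 2.52 FPKM in every library. However, 27.6% of its 100-base windows occur in other members, and reads from those windows cannot be assigned to it alone.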
